A study of Arabidopsis thaliana with 20 samples.

Results

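A set of 7 auxin-responsive and lateral root genes of Arabidopsis thaliana was followed on 20 one-colour arrays of whole seedlings, out of 13286 genes that had a probe set paired with a single gene. They were LBD16 (AT2G42430), LBD29 (AT3G58190), GH3.3 (AT2G23170), GH3.17 (AT1G28130), IAA29 (AT4G32280), HAT2 (AT5G47370) and AT2G04850. The 7 genes were listed by locus, and each was measured by 1 probe set of its own. The list was chosen with measured values of these arrays known. LBD16, GH3.17 and HAT2 were taken as selected on their signal with dexamethasone in the empty-vector line, alone and against the VND7 line, and AT2G04850 as selected on its differences between the lines and its response in the VND7 line. Those values are therefore given as descriptions without p-values.

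The VND7 fusion line carries 35S:VND7-VP16-GR as a single homozygous insertion. VND7 is a NAC-family factor that turns cells into water-conducting xylem vessels. Here it is fused with VP16, a viral activation domain, and with the steroid-binding part of the glucocorticoid receptor (GR), and the 35S promoter that drives it is active in most plant tissues. The labels call the other line empty vector and give its genotype as 35S:VP16-GR:NOS, also a single homozygous insertion. Seedlings 10 days old were soaked in cycloheximide (CHX), which blocks protein synthesis, for 2 h and then for 4 h in CHX with or without dexamethasone (DEX), which lets a protein fused to the receptor domain enter the nucleus. The 4 groups, each line with CHX alone and with DEX and CHX, had 5 arrays each, and all 20 samples had received CHX. The labels do not state that replicates are separate cultures, and the p-values thus reflect only how far these samples spread, in part perhaps for technical reasons. Each line is 1 insertion, so an effect of the fusion protein and one of the insertion cannot be told apart.

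In plants, auxin is bound by TIR1/AFB receptors, which mark the Aux/IAA repressors for degradation and so free the ARF transcription factors. ARF7 and ARF19 then switch on LBD16 and LBD29, transcription factors needed for the first divisions of lateral roots. GH3 enzymes join auxin to amino acids and lower the level of active hormone. No sample here was treated with auxin, and none was left without CHX, so the levels below describe CHX-treated seedlings only.

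Signals are MAS5 signals, a linear scale of brightness recovered from the deposited log values. Of 6 shoot and 6 root markers listed, 2 and 3 were matched to a probe set with a single gene. The summed signal of the shoot markers RCA and LHCB4.1 was 26247 to 43087 over the 20 arrays, and that of the root markers PYK10, EXPA7 and EXPA18 was 1830 to 9102. The ranges of all 4 groups overlapped for both, and 0 of the 5 markers passed in any comparison. The root sum was mostly PYK10, with group means of 3734 to 5045 against 40.5 to 64.6 for EXPA7 and EXPA18. Between the lines PYK10 differed by log2 -0.47 under CHX alone and -0.44 with DEX. With the replicate number as a block the unadjusted limma p was 0.0012 and 0.0022 (adjusted p = 0.315 and 0.063). EXPA7 differed by -0.45 and 0.57, and EXPA18 by 0.28 and 0.38. In whole seedlings, more cells of a type and more RNA per cell cannot be told apart for any rise below.

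LBD16, GH3.17 and HAT2 were higher with DEX in the empty-vector line, by 3.14-fold, 3.75-fold and 2.46-fold. In the VND7 fusion line the same change did not pass for any of them. Selection against the VND7 line with DEX favours a low value there, so nothing is read from that. AT2G04850 was 3.54-fold higher with DEX in the VND7 fusion line, and 4.55-fold higher there than in the empty-vector line in the parallel samples with CHX alone. LBD29, GH3.3 and IAA29 passed no test in any of the 5 comparisons.

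**Figure D1:**
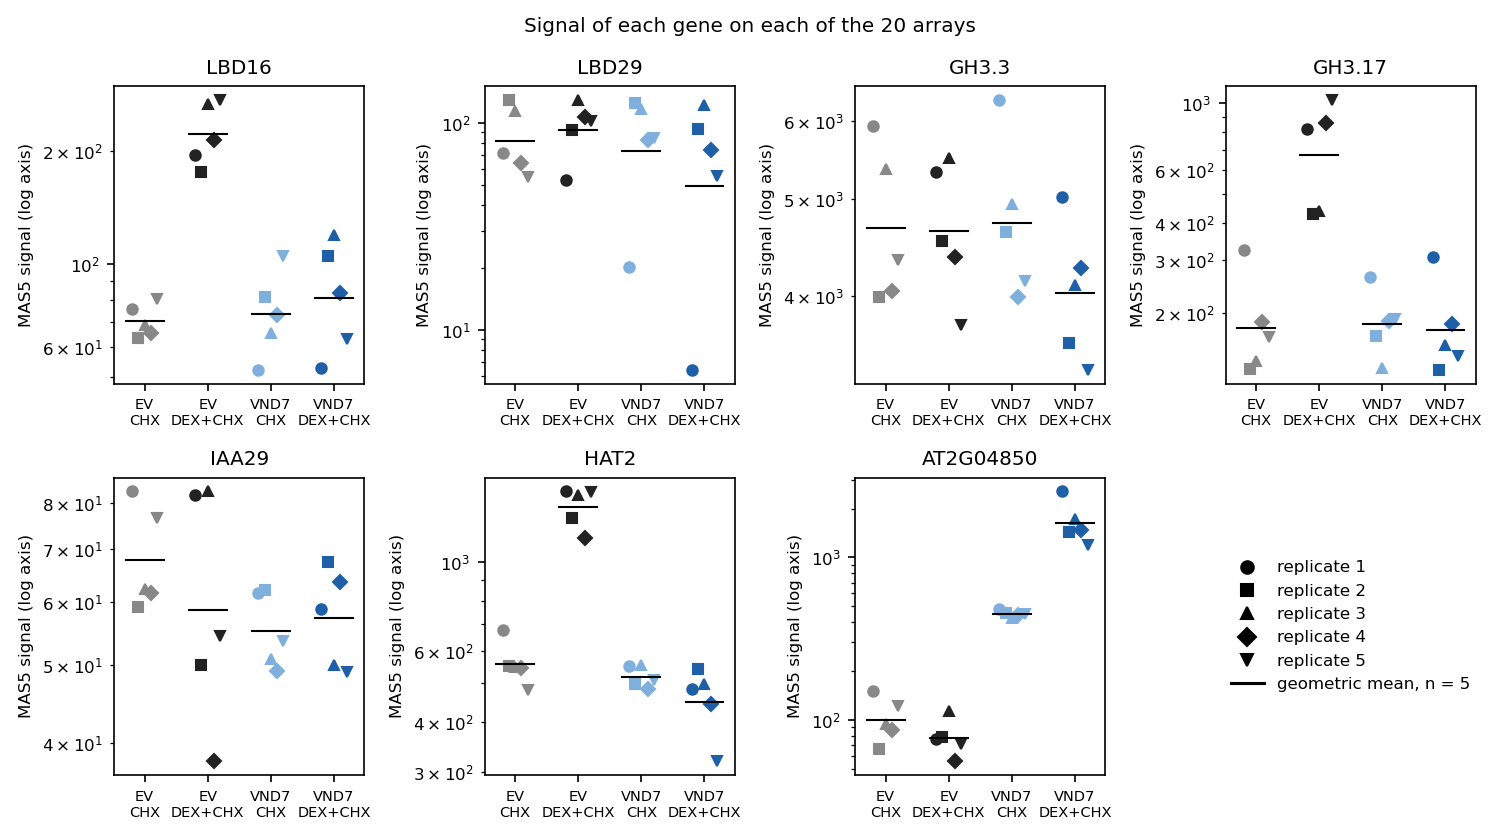
MAS5 signal (log axis) of the 7 genes on each of the 20 arrays, with EV the empty-vector line, 1 symbol per replicate number and a bar at the geometric mean of 5 arrays. LBD16, GH3.17 and HAT2 stand apart in the empty-vector line with DEX, where LBD16 lay between 175.5 and 273.7, while AT2G04850 is higher in both groups of the VND7 fusion line.

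LBD16, the lateral root initiation factor, had signals of 75.6, 63.3, 68.6, 65.4 and 80.6 in replicates 1 to 5 of the empty-vector line under CHX alone. With DEX they were 194.3, 175.5, 266.7, 213.8 and 273.7. In that line every array with DEX lay above every array without it, as it did for 0.822% of probe sets. LBD16 in the VND7 fusion line read 52.1, 81.6, 65.4, 73.2 and 104.8 under CHX alone and 52.7, 104.6, 119.6, 83.4 and 62.9 with DEX. These groups overlapped with each other and with the empty-vector line under CHX alone. The log2 change with DEX was 1.65 ± 0.23 (SE, n = 5 per group) in the empty-vector line and 0.12 ± 0.23 in the VND7 fusion line, where the 95% confidence interval was -0.35 to 0.59. The interval in the empty-vector line was 1.18 to 2.12, which takes no account of the selection of LBD16 on that response.

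GH3.17, an enzyme that conjugates auxin to glutamate, read 324.7, 130.3, 138.5, 186.8 and 166.3 in the empty-vector line under CHX alone. With DEX it read 818.4, 428.2, 438, 860.4 and 1026.6. Here too the groups did not overlap. The signals in the VND7 fusion line were 263.8, 168, 131.3, 188.2 and 192.1 under CHX alone and 308.4, 129.6, 157.1, 184.3 and 144.1 with DEX, and the groups overlapped. The log2 change was 1.91 ± 0.27 in the empty-vector line and -0.09 ± 0.27 in the VND7 fusion line (95% confidence interval -0.65 to 0.48).

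HAT2, an auxin-induced transcription factor of the HD-ZIP II family, read 678.1, 549.7, 545.6, 542.8 and 478.3 in the empty-vector line under CHX alone and 1499.6, 1283.6, 1465.3, 1143 and 1489.3 with DEX. All 5 arrays with DEX were above all arrays without it. HAT2 in the VND7 fusion line read 549.1, 497.1, 553.1, 482.6 and 508.1 under CHX alone and 480.9, 541.2, 496.8, 442 and 318.3 with DEX, where the lowest value was that of replicate 5. The log2 change was 1.30 ± 0.14 in the empty-vector line and -0.23 ± 0.14 in the VND7 fusion line, with a 95% confidence interval of -0.52 to 0.06. The upper end of that interval was 1.04-fold. A block by replicate number lowered the standard error of HAT2 from 0.14 to 0.10.

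Under CHX alone the test of a line difference was not passed by any of these 3 genes. The log2 difference, VND7 fusion line over empty-vector line, was 0.08 ± 0.23 for LBD16, 0.06 ± 0.27 for GH3.17 and -0.08 ± 0.14 for HAT2. Their 95% confidence intervals were -0.39 to 0.55, -0.51 to 0.62 and -0.37 to 0.20, which leaves differences up to those ends possible. The empty-vector arrays under CHX alone were also part of the response on which the 3 genes were selected. With DEX in both lines, signals were lower in the VND7 fusion line for all 3, by log2 differences of -1.46 ± 0.23, -1.94 ± 0.27 and -1.61 ± 0.14. In that comparison the groups of each of the 3 genes did not overlap, against 0.901% of all probe sets.

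AT2G04850, of a family of membrane proteins with a cytochrome b561 and a DOMON domain that includes auxin-induced members, read 150.6, 66, 94.6, 87 and 122.4 in the empty-vector line under CHX alone. In the VND7 fusion line under CHX alone it read 478.8, 454.7, 423.4, 442.7 and 450.9, a log2 difference of 2.19 ± 0.21. With DEX it read 2563, 1437.2, 1716.7, 1482.7 and 1187.6 in the VND7 fusion line, and 76.6, 78.4, 113.8, 55.4 and 71 in the empty-vector line. Both VND7 groups lay above all empty-vector arrays, and the VND7 groups did not overlap with each other. Non-overlap with a higher second group was found in 0.299% of probe sets between the lines under CHX alone, 0.923% in the DEX response of the VND7 fusion line and 1.29% between the lines with DEX. The spread under CHX alone in the VND7 fusion line was small, with a mean of 450 ± 20.1 (SD), against 1677 ± 529 with DEX.

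The log2 change of AT2G04850 with DEX was 1.83 ± 0.21 in the VND7 fusion line. In the empty-vector line it was -0.38 ± 0.21, with a 95% confidence interval of -0.82 to 0.06, and did not pass. A block by replicate number lowered that standard error to 0.17. The empty-vector arrays were also part of the line differences on which AT2G04850 was selected. Between the lines, both with DEX, the log2 difference was 4.39 ± 0.21, or 21.0-fold. The order of its levels was the VND7 fusion line with DEX, the same line without DEX, then the empty-vector groups, which overlapped with each other.

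**Figure D2:**
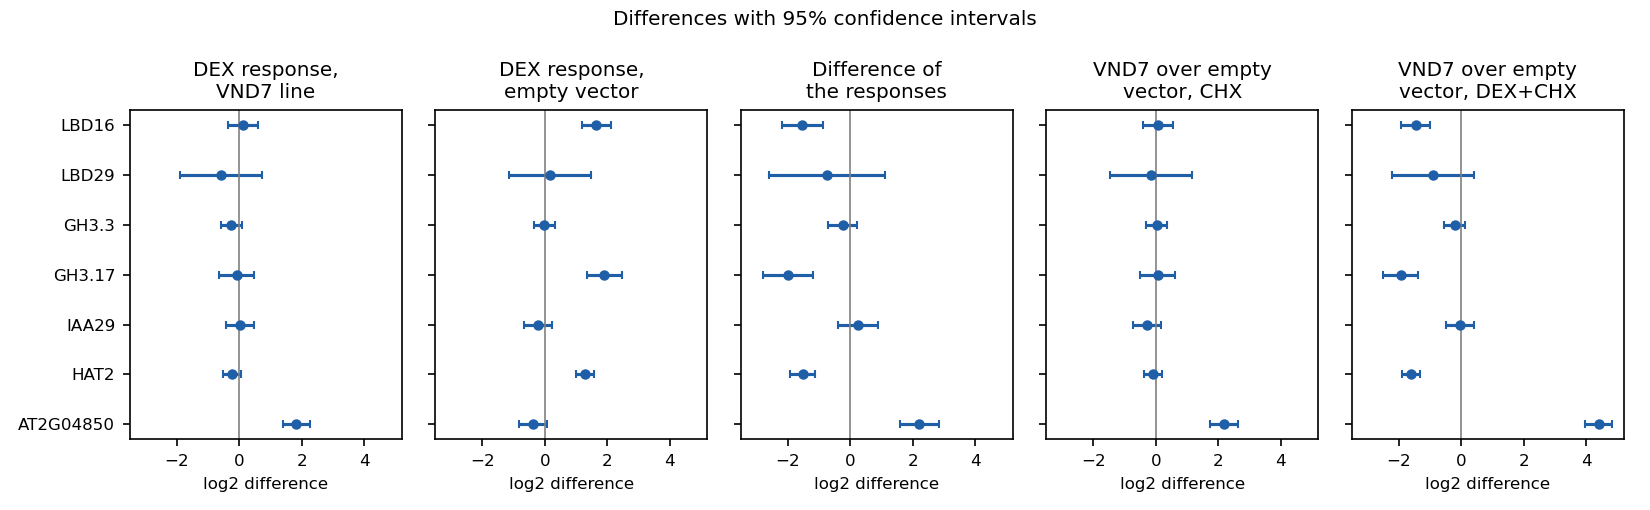
Log2 difference of each gene in the 5 comparisons, as points with 95% confidence intervals from the fit over 20 arrays, on 1 common axis. That fit had no replicate block, and the intervals take no account of how genes were selected. The intervals of LBD29 are the widest, those of IAA29 and GH3.3 include 0 in every panel, and AT2G04850 reaches 4.39 with DEX.

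LBD29, which acts with LBD16 downstream of ARF7 and ARF19, read 71.8, 129.5, 114, 64.3 and 55.1 in the empty-vector line under CHX alone and 52.8, 92.4, 129.8, 106.6 and 102.1 with DEX. LBD29 in the VND7 fusion line read 20.2, 124.8, 116.3, 82.7 and 84.6 under CHX alone and 6.4, 93.3, 121.6, 73.8 and 55.6 with DEX. All 4 groups overlapped, and replicate 1 was the lowest array of both VND7 groups. The log2 change was 0.17 ± 0.63 in the empty-vector line (limma adjusted p = 1, rounded). In the VND7 fusion line it was -0.58 ± 0.63, with a 95% confidence interval of -1.90 to 0.74. The size of that value depended on replicate 1: without its DEX array it was 0.17, and without its CHX array -1.04, and neither passed. Each of these fits left out 1 array and kept its same-numbered partner. By pairs, the change was -0.46, -0.04, -0.11 and -0.57 in replicates 2 to 5. The interval of LBD29 in the empty-vector line was -1.14 to 1.49, and the standard error there fell from 0.63 to 0.39 with the replicate number as a block. LBD16 and LBD29 were not tested against each other.

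GH3.3, an auxin-conjugating enzyme whose gene is a rapid auxin target, had high signals in every group. It read 5927.4, 3988.1, 5365.9, 4048.7 and 4348.4 in the empty-vector line under CHX alone and 5328.1, 4536.9, 5496.6, 4377.5 and 3739.6 with DEX. GH3.3 in the VND7 fusion line read 6299, 4636.6, 4943.2, 3986.7 and 4142.9 under CHX alone and 5030.8, 3583.6, 4105.5, 4261.7 and 3369.7 with DEX. All groups overlapped. The log2 change was -0.01 ± 0.16 in the empty-vector line (95% confidence interval -0.35 to 0.32) and -0.26 ± 0.16 in the VND7 fusion line (-0.59 to 0.08). Neither passed (limma adjusted p = 1 for each, rounded). A block by replicate number lowered the standard error of GH3.3 to 0.09. The change in the VND7 fusion line then had an unadjusted limma p of 0.0077 (adjusted p = 0.291). Between the lines with DEX the log2 difference was -0.21, with an unadjusted limma p of 0.025 with the block (adjusted p = 0.303). A rise above 1.25-fold in the empty-vector line lay outside the interval of GH3.3.

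IAA29, an Aux/IAA repressor gene, read 82.7, 59.2, 62.4, 61.6 and 76.5 in the empty-vector line under CHX alone and 81.8, 50, 82.6, 37.9 and 54.4 with DEX. IAA29 in the VND7 fusion line read 61.6, 62.1, 50.9, 49.2 and 53.6 under CHX alone and 58.8, 67.4, 50.1, 63.6 and 49.1 with DEX. The groups overlapped throughout. The log2 change was -0.21 ± 0.22 in the empty-vector line and 0.03 ± 0.22 in the VND7 fusion line, with 95% confidence intervals of -0.66 to 0.24 and -0.42 to 0.48 (limma adjusted p = 1 for each, rounded). The lines differed by -0.28 ± 0.22 under CHX alone and by -0.04 ± 0.22 with DEX, and neither difference passed.

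Against all 22746 probe sets, 3 of the 7 genes were called higher with DEX in the empty-vector line (LBD16, GH3.17 and HAT2), where 0.281% of probe sets were called higher. AT2G04850 was the 1 gene of 7 called higher with DEX in the VND7 fusion line, where 0.453% were called. The difference between the responses was called lower for 3 and higher for 1 of the 7, against 0.167% and 0.224% of probe sets. AT2G04850 was also the 1 gene called between the lines under CHX alone, where 0.0264% were called higher. With DEX in both lines 3 were called lower and 1 higher, against 0.457% and 0.862%. The 4 genes were selected on these comparisons, so nothing is read from those shares. Without any 1 of 14 of the 20 arrays, the difference between the responses of LBD16 no longer passed, at log2 values of -1.37 to -1.56.

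Taken by same-numbered pairs, LBD16 rose with DEX in the empty-vector line by log2 values of 1.43, 1.44, 1.92, 1.70 and 1.76 in pairs 1 to 5. GH3.17 rose by 1.41, 1.68, 1.62, 2.20 and 2.62, with the largest changes in pairs 4 and 5. HAT2 rose by 1.22, 1.19, 1.38, 1.07 and 1.64. Each of the 3 was thus higher in 5 of 5 pairs, a pattern that 4.72% of all probe sets showed. They were selected on that response, so nothing is read from the share.

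Pairs of the same genes went both ways in the VND7 fusion line. LBD16 changed by -0.04, 0.32, 0.77, 0.24 and -0.70, GH3.17 by 0.17, -0.41, 0.15, 0.02 and -0.38, and HAT2 by -0.25, 0.08, -0.26, -0.08 and -0.64. HAT2 was lower in 4 of 5 pairs, and LBD16 and GH3.17 were each higher in 3. AT2G04850 was higher in all 5 pairs of that line, by 2.36, 1.62, 1.91, 1.79 and 1.44, where 4.2% of probe sets were higher in every pair. Between the lines it was higher in all 5 pairs under CHX alone and with DEX, as were 5.05% and 6.4% of probe sets. Since AT2G04850 was selected on these comparisons, nothing is read from the shares. In the empty-vector line it changed by -0.90, 0.22, 0.22, -0.66 and -0.79.

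**Figure D3:**
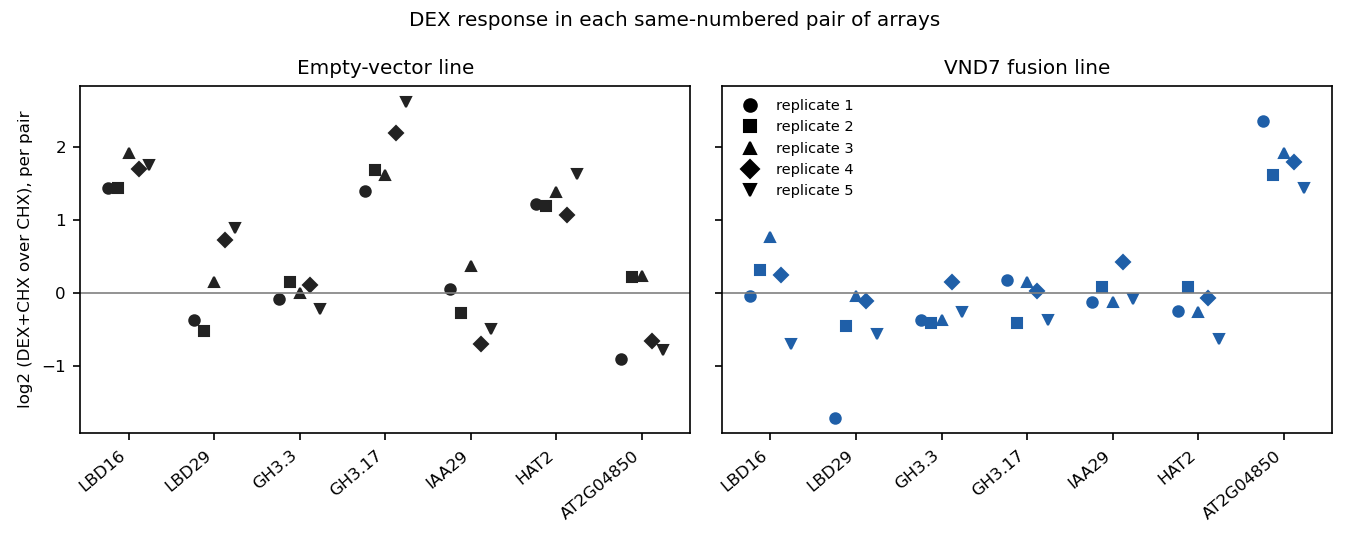
Log2 ratio of DEX with CHX over CHX alone in each same-numbered pair of arrays, for the empty-vector line and the VND7 fusion line, with 1 symbol per replicate number. All 5 points of LBD16, GH3.17 and HAT2 lie above 1 in the empty-vector line and scatter about 0 in the VND7 fusion line, where all 5 points of AT2G04850 lie above 1.

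LBD29 was lower with DEX in 5 of 5 pairs of the VND7 fusion line, by log2 values of -1.71, -0.46, -0.04, -0.11 and -0.57, with the largest fall in pair 1. That pattern was shared by 3.89% of all probe sets. In the empty-vector line the pairs of LBD29 were -0.37, -0.52, 0.15, 0.72 and 0.89. GH3.3 was lower in 4 of 5 pairs of the VND7 fusion line and within 0.22 of 0 in every pair of the empty-vector line. With DEX in both lines, 5 of the 7 genes were lower in the VND7 fusion line in 5 of 5 pairs (LBD16, LBD29, GH3.3, GH3.17 and HAT2), where 5.24% of probe sets were. LBD16, GH3.17 and HAT2 were selected on that comparison, so nothing is read from the count against the share. For LBD29 the smallest of these differences was -0.00061 and for GH3.3 it was -0.05, and neither gene passed the test. With the replicate number as a block, LBD29 had an unadjusted limma p of 0.030 in that comparison (adjusted p = 0.333).

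The replicate number accounted for very different shares of the variance. For AT2G04850 the 4 groups held 97.0% of the variance over 20 arrays and the replicate number 1.30%, and for HAT2 they held 91.4% and 4.78%. For LBD16 the shares were 82.8% and 6.44%, and for GH3.17 80.1% and 14.3%. The order was reversed for GH3.3, with 16.2% for the groups and 68.9% for the replicate number, and for LBD29, with 10.8% and 60.7%. IAA29 had 14.6% and 29.3%. The medians over all probe sets were 9.90% and 43.0%. LBD16, GH3.17, HAT2 and AT2G04850 were selected on differences between groups, which by itself raises their group shares. Nothing is therefore read from those shares against the medians or the other genes.

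Over the 4 groups LBD29 had geometric mean signals of 26.5, 109, 120, 80.4 and 71.7 in replicates 1 to 5. Replicate 1 was thus the lowest for it. For GH3.3 replicate 1 was the highest, at 5625 against 3882 to 4946 in the other replicates. GH3.17 was also highest in replicate 1, at 383 against 187 to 273. What the replicate numbers share is not given in the labels, and its part in these levels was not tested.

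**Figure D4:**
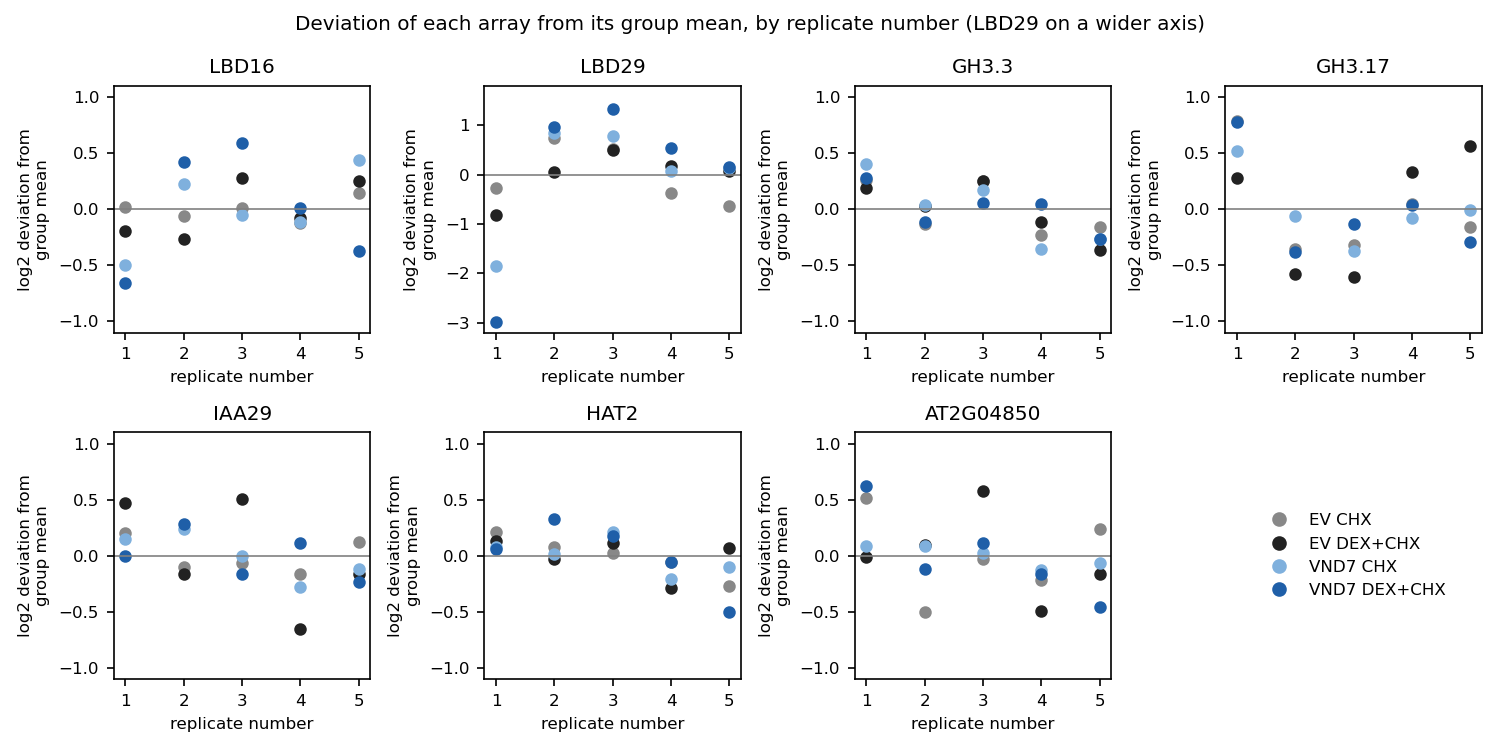
Log2 deviation of each array from the mean of its group, by replicate number, coloured by group, with a wider axis for LBD29. The 4 groups of LBD29 are below their means in replicate 1, and those of GH3.3 and GH3.17 are above theirs in replicate 1.

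The lists of auxin signalling, lateral root and related genes held 163 genes. Of these, 31 were matched to a probe set with a single gene and are called measured, the 7 described genes included. Such a match was made for 59.1% of probe sets, so a gene without one may still be on the array. Of the other 24, 0 passed in any of the 5 comparisons by limma without a replicate block, and with the block 1 passed (IAA18, between the lines with DEX). Without the block, 2 had an unadjusted p under 0.05 in the DEX response of the empty-vector line and 1 between the lines with DEX. The lists of ARF factors, auxin receptors, auxin transporters and SAUR genes (53 genes) had no measured member, so these counts say nothing about them.

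**Figure D5:**
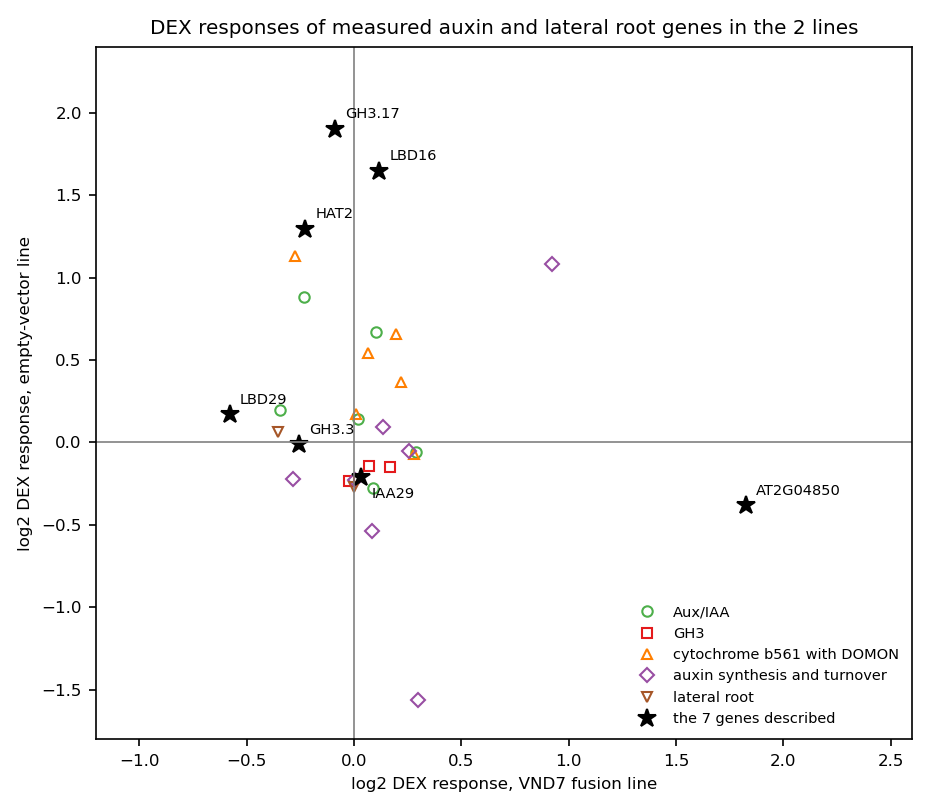
Log2 DEX response in the VND7 fusion line (horizontal) against that in the empty-vector line (vertical) for the 7 genes described (stars) and 24 other measured genes of 5 lists (open symbols). LBD16, GH3.17 and HAT2 lie high on the vertical axis near 0 on the horizontal one, and AT2G04850 lies far to the right, while none of the open symbols passed the test of either response plotted.

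Among the other 3 measured GH3 genes the log2 change in the empty-vector line was -0.23 to -0.14, with a median of -0.15, against a median of -0.01 over all probe sets. GH3.5, which also conjugates auxin, had -0.23 ± 0.25 there and -0.02 ± 0.25 in the VND7 fusion line. Between the lines under CHX alone GH3.5 differed by -0.41 ± 0.25. With the replicate number as a block the unadjusted limma p of that difference was 0.0012 (adjusted p = 0.315). For the change of GH3.5 in the empty-vector line it was 0.042 (adjusted p = 0.567). GH3.9 changed by -0.15 ± 0.33 in the empty-vector line and 0.17 ± 0.33 in the VND7 fusion line. None of the 3 passed the test.

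Of 29 Aux/IAA genes listed, 7 were measured, IAA29 included. The other 6 Aux/IAA genes had log2 changes of -0.28 to 0.88 in the empty-vector line (median 0.17) and of -0.35 to 0.29 in the VND7 fusion line (median 0.05). IAA18 had -0.28 ± 0.16 and 0.09 ± 0.16. With DEX in both lines IAA18 was 0.34 ± 0.16 higher in the VND7 fusion line, which did not pass (limma adjusted p = 0.846) but did with the replicate number as a block (adjusted p = 0.023). IAA33 differed between the lines by 1.21 ± 0.66 under CHX alone at signals of 1.5 to 43.6, which are low on this scale. IAA31 and IAA34 were low too, with group means of 8.4 to 15.8 and 14.9 to 23.3, and IAA20 had 39.4 to 52.4. IAA18 and IAA30 were brighter, with group means of 745 to 937 and 137 to 169.

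The other 6 members of the cytochrome b561 and DOMON family had log2 changes of -0.27 to 0.28 with DEX in the VND7 fusion line (median 0.13), where AT2G04850 had 1.83. Under CHX alone the family differed between the lines by -0.17 to 0.87 (median 0.12), where AT2G04850 differed by 2.19. AT3G25290 had 0.49 ± 0.26 in that comparison and AT5G35735, with signals of 12468 to 18927, had 0.16 ± 0.11. In the empty-vector line the family's changes were -0.07 to 1.13 (median 0.45), and AT3G25290 had 0.66 ± 0.26 (limma adjusted p = 1, rounded).

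Of 7 measured genes of auxin synthesis and turnover none passed. YUC4, of the family of flavin monooxygenases that make auxin, had log2 changes with DEX of 0.92 ± 0.55 in the VND7 fusion line and 1.08 ± 0.55 in the empty-vector line, at signals of 2.3 to 29.9. YUC11 had 0.30 ± 0.74 and -1.56 ± 0.74, at signals of 0.9 to 32.4. For lateral roots, PUCHI, an AP2/ERF factor of primordium development, had -0.36 ± 0.58 and 0.06 ± 0.58, at signals of 3.2 to 79.5. The receptor kinase gene ACR4 had 0.00 ± 0.56 and -0.27 ± 0.56, at signals of 5 to 62.3.

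The genes with the most similar profile were ranked by Pearson's r over the 20 arrays among 5927 or 5928 named probe sets with a mean signal above the median. These 20 arrays share 4 groups and 5 replicate numbers. LBD16, GH3.17 and HAT2 were selected on the same response, so a high r between them follows in part from that selection. HAT2 was the closest to LBD16 (r = 0.87), followed by AT1G35330 (0.87) and AT3G27950 (0.86). For HAT2 they were AT3G23090 (0.90), the glutathione transferase gene GSTU27 (0.88) and AT2G01540 (0.87). For GH3.17 they were AT5G57070 (0.91), AT5G10960 (0.88) and AT5G64100 (0.88).

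AT2G04850 was closest to AT1G70500 (0.96) and AT1G23460 (0.93), both polygalacturonase-family genes, and to AT2G37750 (0.92). LBD29 was closest to AT5G50140 (0.91), AT4G24170 (0.91) and AT4G09100 (0.88). GH3.3 was closest to AT1G78040 (0.86), AT1G79720 (0.84) and AT3G48420 (0.84). IAA29 had the lowest values, with AT1G50740 (0.74), AT4G10060 (0.72) and AT3G57030 (0.70).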

How the data were processed

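Biotin-labelled cRNA from 10 µg of total RNA was hybridised to Affymetrix arrays, per the labels' protocols, which give 10 µM for CHX and DEX where other label fields give 10 mM. Seedlings grew under 16 h days at 23 °C. The submitters' processing notes name MAS5 without a version. The deposited values are natural logs (ln) of the signal over its array median, as worked out from the values: each column's median was 0, and exponentiated values fell on whole multiples of 1 step (100% of 13796 to 14327 values per array under 3000 steps, tolerance 0.02 of a step), taken as 0.1 signal units. Trimmed means (2% at each end) were then 496.1 to 496.6 and medians 159.7 to 186. Detection calls were not used here, and the number of arrays limits the precision.

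Values were turned into log2 and fitted with limma 3.58.1 in R 4.3.3 on 4 group means over 20 arrays (eBayes with a variance trend), over all 22746 probe sets, with Benjamini-Hochberg adjusted p under 0.05 as the threshold; n is 5 arrays per group. Standard errors and intervals are from this fit, which does not use the pairing of arrays, except where a block is named. The script was tested on simulated data. Probe sets were named through the array's gene table and RefSeq symbols (13436 with a single matched gene). No coordinates or sequences were used here. Columns left unused numbered 0.

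The 7 genes, the gene lists and the rules were chosen with earlier results of these data known. Named list genes were, per list, up to 4 past the threshold or else the 2 with the smallest adjusted p, and the 3 nearest profiles per gene. Same-numbered arrays of different groups deviated together in each of 30 pairs (r = 0.56 to 0.84 over 11367 probe sets), so the numbers were taken to pair the arrays, and a fit with the replicate number as a block was an alternative. Replicates 2 and 3 (median r = 0.66) and 4 and 5 (0.71) also deviated together, while the other 8 pairs of numbers had medians of -0.58 to -0.17. Deviations were taken from the mean of each group's 5 arrays. This by itself pushes r between unlike numbers below 0, so nothing is read from the negative values. The other alternatives were a pseudocount of 16 signal units, leaving out the dimmest 40% of probe sets, quantile normalization, only the groups compared, no variance trend, each array left out in turn, and, added after seeing the data, MAS5 scaling without median centring.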

Additional observations from a re-analysis of the deposited data

Results flagged for a closer look

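The test of the difference between the DEX responses, VND7 fusion line minus empty-vector line, was passed by 4 of the 7 genes: LBD16 (log2 difference -1.53), GH3.17 (-1.99), HAT2 (-1.53) and AT2G04850 (2.21). The first 3 were lower in the VND7 fusion line and AT2G04850 higher. These genes were selected with that difference known.

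LBD29 had an array far below the others of its group in both VND7 groups, each time replicate 1: 20.2 under CHX alone, where the next lowest signal was 82.7, and 6.4 with DEX, where the next was 55.6. Of 28 groups examined in this way these were the 2 that stood out, and chance gives about 1 in 20. Without the DEX array of replicate 1 the log2 change of LBD29 in the VND7 fusion line was 0.17 instead of -0.58, and without the CHX array it was -1.04. None of the 3 values passed the test. Leaving out 1 array kept its same-numbered partner in the fit. By pairs, LBD29 changed by -0.46, -0.04, -0.11 and -0.57 in replicates 2 to 5.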

How the results depend on the processing

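With the replicate number as a block, more of all probe sets were called: 211 higher and 25 lower with DEX in the VND7 fusion line (103 and 0 without it), 150 and 12 in the empty-vector line (64 and 0), 121 and 118 for the difference (51 and 38), 18 and 3 between the lines under CHX alone (6 and 0) and 437 and 300 with DEX (196 and 104). The counts of the 7 genes past the threshold did not change in any of the 5 comparisons, and no call of the 7 genes changed. The count was 1 for the DEX response in the VND7 fusion line and 1 between the lines under CHX alone in each of the 27 alternatives that were run (26 for the difference, which uses all groups). It was 3 for the empty-vector line and 4 between the lines with DEX, in all alternatives but the one without the dimmest 40% of probe sets (2 and 3), where LBD16, LBD29 and IAA29 were not tested. For the difference between the responses it was 4, or 3 without the dimmest probe sets and without any 1 of 14 arrays, each time by the loss of LBD16: the DEX arrays of replicates 1, 4 and 5 and the CHX arrays of replicates 2, 3, 4 and 5 of the VND7 fusion line, and the DEX arrays of replicates 3, 4 and 5 and the CHX arrays of replicates 1, 2, 3 and 4 of the empty-vector line. These fits had no block. No call of the 7 genes turned its direction. Of the other genes named, IAA18 gained a call with the block, between the lines with DEX. The standard error of LBD29, 0.63, was the largest of the 7 genes.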
